A study of Homo sapiens with 12 samples.

Results

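The cadherin superfamily genes described here are the cadherins and protocadherins of a table of 16389 genes. They were taken by gene symbol as the numbered cadherins, the cadherin-related genes, the FAT and dachsous genes, the CELSR genes and the protocadherins, and 41 genes met the rule. The rule used no measured value, but the table held only genes with a mean of at least 10 reads. By subfamily they were 11 cadherins, 3 cadherin-related genes, 4 FAT and dachsous genes, 3 CELSR genes, 4 protocadherins outside the gene clusters and 16 clustered protocadherins, of which 1 was an alpha, 10 were beta and 5 were gamma genes. Members of the superfamily other than these 41 were not analysed here.

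Gene expression was measured by RNA-seq in HepG2 cells, an established line from a human liver cancer. Cells were kept for 48 h in medium with 5.5 mM glucose (LG) or 20 mM glucose (HG), and in LGV and HGV the same media were followed by 1 mM valproic acid (VPA) for 12 h. VPA is an antiepileptic drug that inhibits histone deacetylases. Each of the 4 groups had 3 libraries, and every mean and SD below is over those 3. The harvest time of the cells without VPA is not given, so VPA and time in culture cannot be told apart.

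Cadherins are membrane proteins that join neighbouring cells through calcium-dependent binding of their outer repeats. Classical cadherins are tied to actin by catenins at adherens junctions, FAT, dachsous and CELSR proteins act in planar cell polarity, and protocadherins are best known from neurons. In the clustered protocadherin locus each variable exon has its own promoter, and single neurons use different sets of them. Hepatocytes normally carry both E-cadherin (CDH1) and N-cadherin (CDH2).

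Total counts ran from 29798442 to 45572694 per library, and 3 reads, taken as the smallest count told from none, stood for 0.0713 to 0.112 CPM. CPM are read counts scaled to a common library size with TMM factors, and this floor covers counting error only. All 10 hepatocyte markers examined were among the genes analysed, with a summed level of 40300 to 61900 CPM over the libraries. The sum was lower in every LGV library (40300 to 41300 CPM) than in any LG library (52600 to 59300 CPM), and overlapped between HG (53500 to 61300 CPM) and HGV (47300 to 61900 CPM). The labels do not say that replicates were separate cultures, so the tests measure the spread between these samples, which may be technical. In bulk RNA, fewer cells with a transcript and less transcript per cell cannot be told apart.

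Levels between genes were compared as CPM per kb of exon sequence that no other annotated gene covers. In LG the order was led by FAT1 with 33.8 CPM per kb, CDH2 with 25.8 and CDHR2 with 17. CELSR3 followed with 3.12 CPM per kb, CELSR2 with 2.56, CDH16 with 2.37 and CDH1 with 1.75. The place of PCDHB2 among these was not settled, since a gene on the other strand covers 43.8% of its exon bases: it had 3.73 CPM per kb of the other bases and 2.09 per kb of all its exon bases. At the other end, 22 members had less than 1 CPM in LG. HepG2 cells in low glucose thus carried far more CDH2 than CDH1 transcript.

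With VPA in high glucose (HGV against HG), the 41 members moved upward more often than downward. All 41 were tested, and 20 rose and 2 fell, with a median log2 fold change of 0.54 against 0.02 over all genes tested. Among the 16188 genes tested, 25.8% were higher and 20.2% lower, 46.1% in all, whereas the members' shares were 48.8% and 4.88%. All 3 HGV libraries lay above all 3 HG libraries for 21 members (30.1% of all genes) and below them for 3 (24.5%).

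The same comparison in low glucose (LGV against LG) had 37 members with enough reads, of which 21 rose and 1 fell. The median log2 fold change was 0.62 against -0.01 over all genes tested, of which 21.7% were higher and 19.9% lower, 41.6% in all, against 56.8% and 2.7% of the members tested. Groups lay apart upward for 23 members (25.7% of all genes) and downward for 3 (24.8%). CDH3, CDH5, CDH23 and PCDHB10 had a mean under 10 reads and were not tested there. In the same comparison 7 of the 10 hepatocyte markers fell and none rose, with a median log2 fold change of -0.54, against 3 that fell and 1 that rose in HGV against HG (median -0.16). The part of this shift in the members' results was not tested.

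A gene tested on the strength of 1 group alone had little room not to differ. In HGV against HG, 34 members had a mean of at least 10 reads in both groups, and 14 of these rose (41.2%, against 22.8% of the 15194 genes with as many reads). In LGV against LG, 15 of 29 such members rose (51.7%, against 19.0%). Low level went with a rise in members and in other genes alike. Of the 22 members under 1 CPM in LG, 13 rose in HGV against HG (59.1%, against 40.4% of all genes at that level), and of the 19 others 7 rose (36.8%, against 22.0%). These shares by level keep the 7 members, and the 994 of all genes, with a mean under 10 reads in HG or HGV. Where HG was the low group, the rise was partly fixed in advance.

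**Figure D1:**
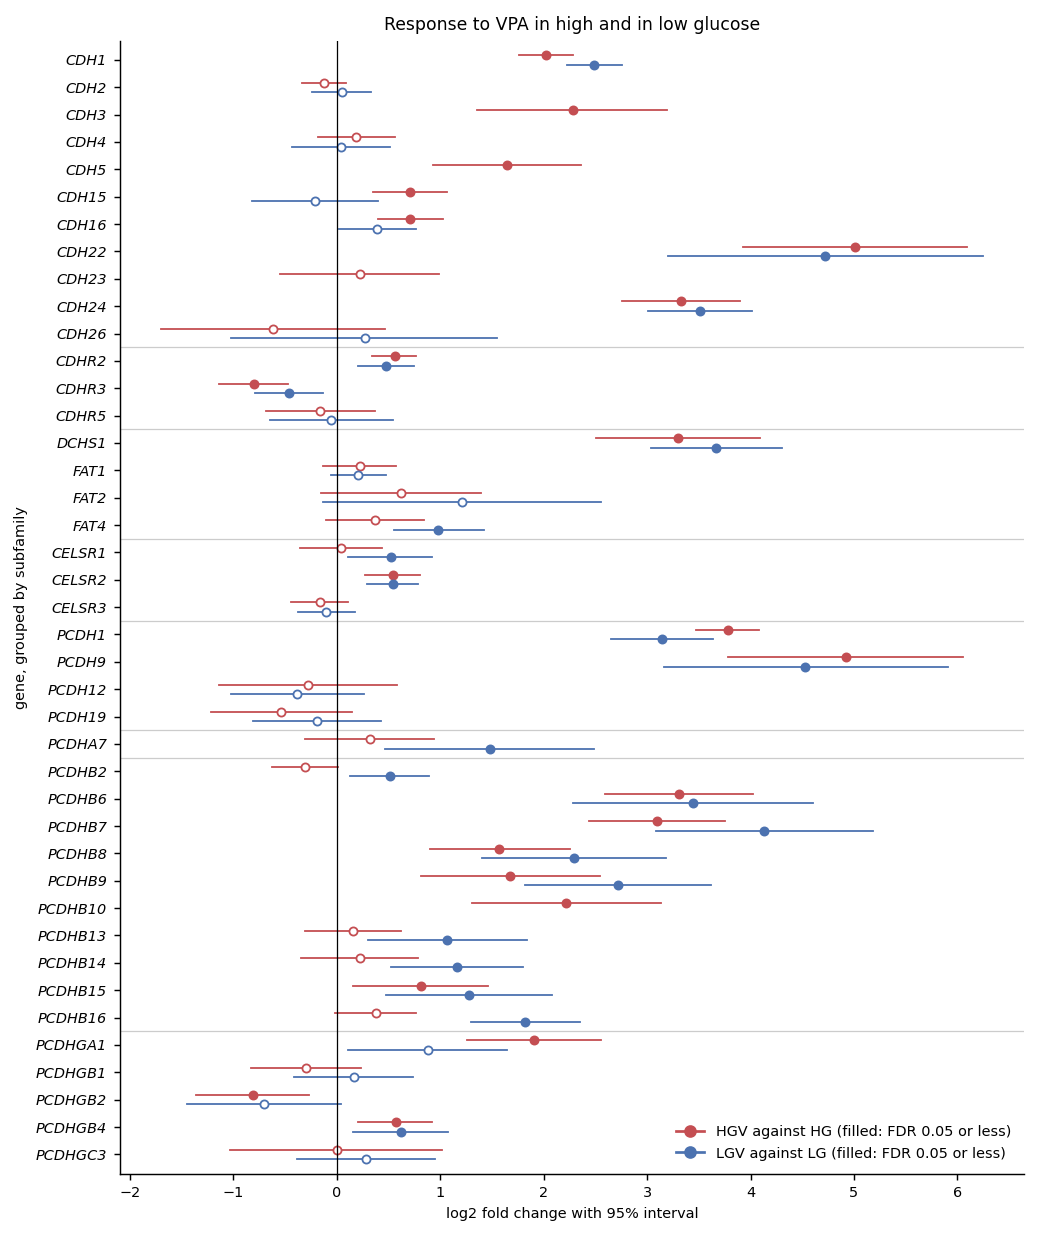
Fitted log2 fold changes (x axis) of the members (y axis, grouped by subfamily) for HGV against HG (red) and LGV against LG (blue), with 95% intervals from edgeR and filled points where FDR is 0.05 or less. The filled points lie right of 0 except for CDHR3 in both comparisons and PCDHGB2 in HGV against HG, and the values of CDH22 and PCDH9 rest on at most 4 reads in any untreated library.

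Among the classical cadherins, CDH1 rose and CDH2 did not pass the test. CDH1, E-cadherin, is the main adhesion protein of epithelial adherens junctions and lies on chromosome 16 of GRCh37 from 68771195 to 68869440. Its levels were 10.6, 9.31 and 10.3 CPM in LG and 55.3, 56.9 and 56.0 CPM in LGV. In high glucose they were 16.5, 21.4 and 19.7 CPM in HG and 79.7, 74.8 and 79.3 CPM in HGV. The 4 groups did not overlap, in the order LG, HG, LGV and HGV. The log2 fold change with VPA was 2.02 in high glucose (SE 0.12, FDR 9.14e-08) and 2.49 in low glucose (SE 0.12, FDR 7.73e-09).

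CDH2, N-cadherin, is the classical cadherin of neurons and mesenchymal cells and also of hepatocytes. It had 189, 250 and 201 CPM in LG, 198, 236 and 223 CPM in LGV, 203, 185 and 190 CPM in HG and 186, 176 and 167 CPM in HGV. Treated and untreated libraries overlapped at each glucose level. Its log2 fold change was -0.12 in high glucose (95% interval -0.34 to 0.09, FDR 0.321) and 0.05 in low glucose (-0.24 to 0.33, FDR 0.81). The ratio of CDH1 to CDH2, in CPM per kb, was 0.0695 ± 0.0140 in LG, 0.372 ± 0.0287 in LGV, 0.145 ± 0.0258 in HG and 0.639 ± 0.0407 in HGV (SD, n = 3). CDH2 stayed the more abundant transcript of the pair in each of the 12 libraries.

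**Figure D2:**
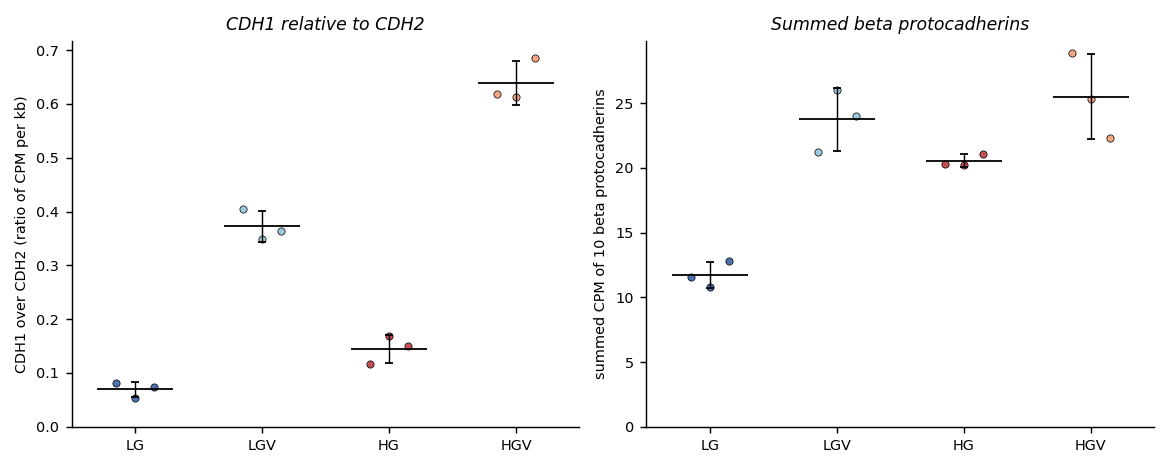
Left, CDH1 over CDH2 as a ratio of CPM per kb; right, summed CPM of the 10 beta protocadherins, both by group with 1 point per library, a line at the mean and bars of 1 SD. The ratio goes from a mean of 0.0695 in LG to 0.639 in HGV without overlap between groups, and the LG libraries have the lowest beta sums.

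CDH24, a type II cadherin that binds catenins, went from 0.748, 0.599 and 0.766 CPM in LG to 7.08, 7.73 and 9.02 CPM in LGV. In high glucose it went from 0.412, 0.778 and 1.01 CPM to 6.68, 6.99 and 8.82 CPM. Treated libraries thus formed 1 level whatever the glucose, and untreated libraries another. CDH24 rose by 3.33 on the log2 scale in high glucose (SE 0.26, FDR 7.31e-07) and by 3.51 in low glucose (SE 0.23, FDR 6.23e-08).

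CDH22, a type II cadherin of brain, was close to absent without VPA. It had 3, 0 and 0 reads in the LG libraries and 1 read in each HG library, and with VPA it had 0.900, 0.585 and 1.04 CPM in LGV and 1.26, 1.17 and 0.794 CPM in HGV. The ratio of reads scaled for library size was 36.1 in high glucose (exact 95% counting interval 12.1 to 178) and 30.3 in low glucose (10.0 to 150). With a mean under 10 reads in HG and in LG, CDH22 was tested only because the treated libraries were higher. On that condition it passed in both comparisons, with an FDR of 5.23e-06 and 9.77e-05.

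CDH3, P-cadherin, lies beside CDH1 on chromosome 16, from 68670092 to 68761371. It had 0.285, 0.329 and 0.140 CPM in HG and 0.767, 1.76 and 1.09 CPM in HGV, and the groups lay apart (log2 fold change 2.28, SE 0.42, FDR 0.000728). With a mean under 10 reads in HG, it was tested only because HGV was higher. In low glucose it had 9 reads over the LG libraries and 49 over the LGV libraries, a ratio of 5.68 (exact 95% counting interval 2.76 to 13.2), with no test. CDH5, the cadherin of endothelial junctions, went from 0.380, 0.568 and 0.280 CPM in HG to 1.5, 0.999 and 1.38 CPM in HGV, again without overlap (log2 fold change 1.65, SE 0.33, FDR 0.00133). Of 7 endothelial markers, VWF, TIE1 and CDH5 itself were analysed, and none was at 0 in all libraries. Their summed level was 3.22 to 5.17 CPM in HG and 7.11 to 8.58 CPM in HGV, a sum that includes CDH5. TIE1 rose by 1.55 on the log2 scale (FDR 9.19e-05), and VWF had 0.18 (FDR 0.576). The part of these values in the result for CDH5 was not tested.

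CDH16, first known from kidney, and CDH15, the cadherin of skeletal muscle, rose in high glucose. CDH16 had 11.6, 14.2 and 11.3 CPM in HG and 17.1, 21.6 and 22.2 CPM in HGV, with a log2 fold change of 0.71 (SE 0.14, FDR 0.00141). CDH15 had 2.92, 3.62 and 3.53 CPM in HG and 5.06, 5.52 and 5.94 CPM in HGV, also with a log2 fold change of 0.71 (SE 0.17, FDR 0.00359). Neither set of groups overlapped. In low glucose the log2 fold change was 0.39 for CDH16 (FDR 0.0843) and -0.21 for CDH15 (FDR 0.596). CDH4, or R-cadherin, and CDH26 passed in neither comparison, and CDH23, a part of the tip links of hair cells, did not pass in high glucose.

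**Figure D3:**
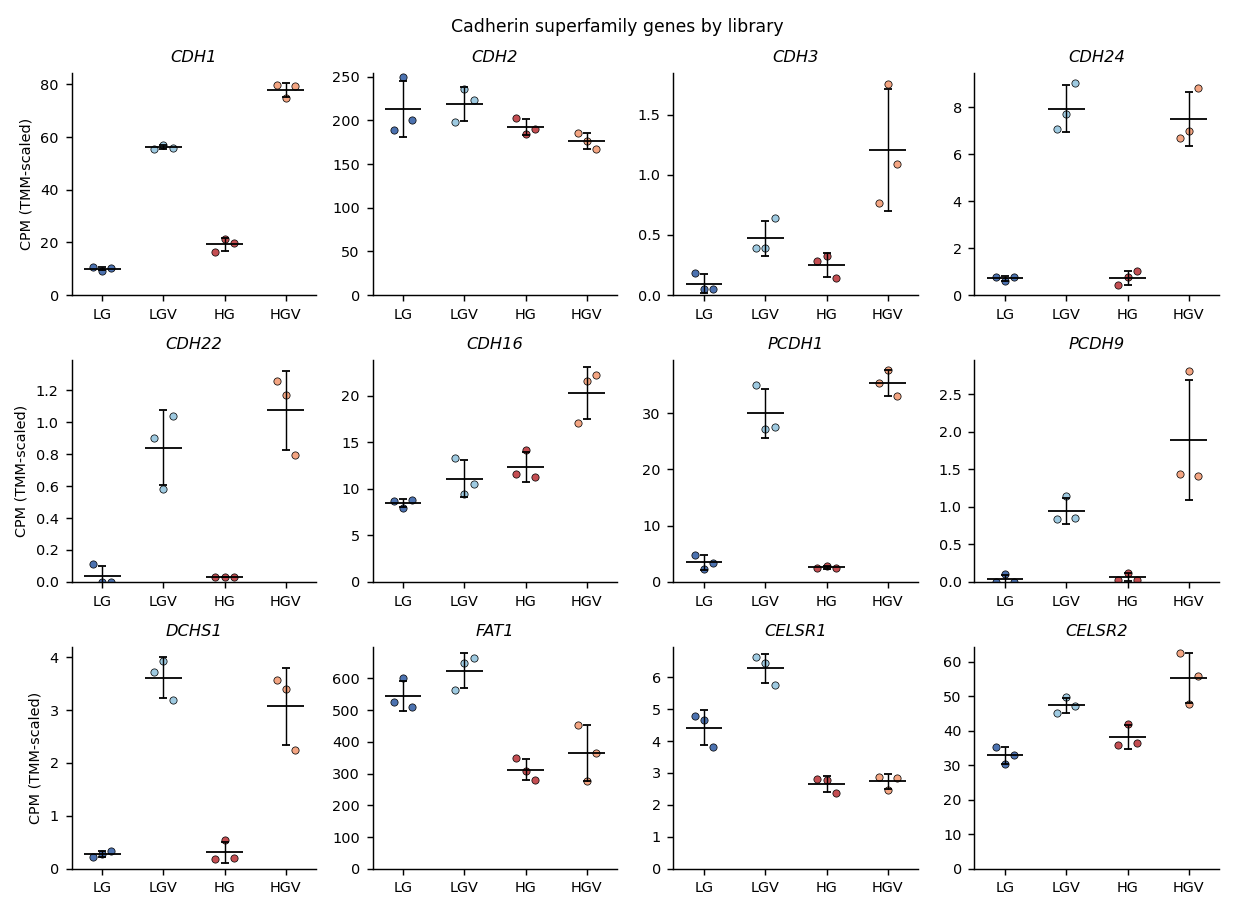
CPM (TMM-scaled, linear axes from 0) of 12 members by group, with 1 point per library, a line at the mean and bars of 1 SD. CDH1, CDH24, CDH22, PCDH1, PCDH9 and DCHS1 separate treated from untreated libraries at both glucose levels, CDH2 does not, and FAT1 and CELSR1 separate LG from HG.

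The cadherin-related genes moved in opposite directions. CDHR2, which links neighbouring microvilli of a brush border, had 103, 85.6 and 76.6 CPM in LG and 118, 130 and 119 CPM in LGV. In high glucose it had 61.8, 64.4 and 58.2 CPM in HG and 91.2, 84.7 and 95.1 CPM in HGV. Treated libraries lay above untreated ones at each glucose level, with log2 fold changes of 0.56 (SE 0.10, FDR 0.000599) in high and 0.48 (SE 0.13, FDR 0.00683) in low glucose. Its partner in microvillar adhesion, CDHR5, had 1.62 to 3.71 CPM over the 12 libraries and log2 fold changes of -0.16 (FDR 0.626) and -0.06 (FDR 0.893). CDHR3, a cadherin of airway cells that rhinovirus C uses as its receptor, fell in both comparisons. It had 12.1 to 16.3 CPM in HG and 7.20 to 8.46 CPM in HGV, with a log2 fold change of -0.80 (SE 0.15, FDR 0.00101), and in low glucose the log2 fold change was -0.46 (SE 0.15, FDR 0.0268).

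In the FAT and dachsous group, DCHS1 rose at both glucose levels. DCHS1 binds FAT4 between neighbouring cells and lies on chromosome 11 from 6642561 to 6677040. It had 0.224, 0.274 and 0.332 CPM in LG, 3.72, 3.93 and 3.18 CPM in LGV, 0.190, 0.538 and 0.196 CPM in HG and 3.56, 3.40 and 2.24 CPM in HGV. The lowest treated library was over 4 times the highest untreated one. The log2 fold change was 3.30 in high glucose (SE 0.36, FDR 1.21e-05, and 3.96 without HG replicate 2) and 3.67 in low glucose (SE 0.29, FDR 3.06e-07). Other-strand genes overlap 10.3% of its exon bases, and strand use in counting is not given. FAT4 had 2.32, 2.72 and 2.86 CPM in LG and 5.37, 4.74 and 5.44 CPM in LGV. These groups lay apart (log2 fold change 0.98, SE 0.20, FDR 0.00133), whereas HG and HGV overlapped (log2 fold change 0.37, SE 0.22, FDR 0.189). FAT1, the giant cadherin that led the order of levels, had log2 fold changes of 0.22 (95% interval -0.13 to 0.57) and 0.21 (-0.06 to 0.48), with overlapping groups. FAT2 passed in neither comparison.

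CELSR proteins are the vertebrate relatives of fly Flamingo and set up planar polarity. CELSR2 rose with VPA, from 35.2, 30.3 and 33.1 to 45.3, 49.7 and 47.2 CPM in low glucose and from 36.0, 42.1 and 36.4 to 62.5, 47.8 and 55.8 CPM in high glucose. The log2 fold change was 0.54 in both (FDR 0.00351 in high and 0.0018 in low glucose), and treated libraries lay above untreated ones. CELSR1 had 4.79, 4.67 and 3.80 CPM in LG and 6.63, 6.43 and 5.76 CPM in LGV (log2 fold change 0.52, SE 0.19, FDR 0.0394), and 2.38 to 2.88 CPM in HG and HGV alike (log2 fold change 0.04, FDR 0.885). CELSR3 had 29.7 to 45.8 CPM over all libraries and passed in neither comparison.

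Of the 4 protocadherins outside the clusters, PCDH1 and PCDH9 rose at both glucose levels. PCDH1, a protocadherin of epithelia that include the airway, had the smallest FDR of the members in high glucose. It had 4.82, 2.25 and 3.32 CPM in LG, 35.0, 27.2 and 27.6 CPM in LGV, 2.41, 2.90 and 2.41 CPM in HG and 35.4, 37.6 and 33.0 CPM in HGV. Every treated library was over 5 times every untreated one, and PCDH1 rose by 3.78 on the log2 scale in high glucose (SE 0.14, FDR 6.64e-09) and by 3.14 in low glucose (SE 0.23, FDR 1.44e-07).

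The promoter of PCDH1 is printed because, among members with more than 3 reads in each untreated library, it had the largest log2 fold change in high glucose. It is the RefSeq sequence of GRCh38.p14 at chr5:141869578-141869877 on the minus strand, from 250 bases before to 50 bases after the start site, with the GC box letters GGGCGG in capitals.
PCDH1: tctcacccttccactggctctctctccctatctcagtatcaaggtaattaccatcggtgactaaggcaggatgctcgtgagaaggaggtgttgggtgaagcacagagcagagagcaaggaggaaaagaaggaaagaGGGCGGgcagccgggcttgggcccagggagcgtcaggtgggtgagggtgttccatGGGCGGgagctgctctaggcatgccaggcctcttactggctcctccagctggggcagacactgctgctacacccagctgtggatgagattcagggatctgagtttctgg
These letters, searched on both strands, occur in 45.0% of the 35116 promoters of the table and in 9 of the 38 member promoters, which belong to 29 of the 41 members. No entry was at hand for CDH1, CDH3, CDH5, CDH15, CDH16, CDH22, CDH24, CDHR5, CELSR1, DCHS1, FAT4 and PCDHB6.

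PCDH9, a protocadherin of neurons, had 0, 4 and 0 reads in LG and 1, 4 and 1 reads in HG. With VPA it had 0.840, 1.14 and 0.854 CPM in LGV and 1.44, 2.81 and 1.41 CPM in HGV. The ratio of scaled reads was 32.9 in high glucose (exact 95% counting interval 14.9 to 90.6, FDR 9.52e-06) and 24.8 in low glucose (9.36 to 92.8, FDR 5.47e-05). With a mean under 10 reads in HG and in LG, PCDH9 too was tested only because the treated libraries were higher. PCDH12, known from endothelium, and PCDH19, known from neurons and from a form of epilepsy, passed in neither comparison and had log2 fold changes from -0.54 to -0.19.

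The 16 clustered protocadherins lie on chromosome 5 of GRCh37 between 140213969 and 140892544. Beta genes are single exons, while alpha and gamma genes share their last exons with the other genes of their cluster. As annotated, 34.5% to 64.4% of the exon bases of the alpha and gamma members belong to other genes too, so their reads cannot be assigned with certainty. Beta genes also resemble one another. Between 9.67% (PCDHB7) and 45.5% (PCDHB8, with PCDHB13 as the closest) of their distinct stretches of 50 bases, the read length, occur in another clustered gene.

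The beta promoters are shown because the beta genes were the largest group of members at 1 locus. The RefSeq promoters of GRCh38.p14 held 9 of the 10 beta members, and each had the 9 letters GGTGGCGCT, in capitals below, starting between 76 and 2 bases before the start site on the gene's strand. Each window is 57 bases, with 24 bases on either side, in order along the plus strand of chromosome 5.
PCDHB2, chr5:141094531-141094587: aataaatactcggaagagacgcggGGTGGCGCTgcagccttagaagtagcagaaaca
PCDHB7, chr5:141172553-141172609: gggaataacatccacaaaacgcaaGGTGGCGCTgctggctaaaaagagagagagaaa
PCDHB8, chr5:141177764-141177820: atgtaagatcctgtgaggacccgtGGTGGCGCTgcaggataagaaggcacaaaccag
PCDHB16, chr5:141182297-141182353: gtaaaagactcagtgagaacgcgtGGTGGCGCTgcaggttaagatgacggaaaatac
PCDHB9, chr5:141187061-141187117: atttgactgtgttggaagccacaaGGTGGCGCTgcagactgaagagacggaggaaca
PCDHB10, chr5:141192286-141192342: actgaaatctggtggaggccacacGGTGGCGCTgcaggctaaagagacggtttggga
PCDHB13, chr5:141213852-141213908: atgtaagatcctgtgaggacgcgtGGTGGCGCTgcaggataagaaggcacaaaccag
PCDHB14, chr5:141223250-141223306: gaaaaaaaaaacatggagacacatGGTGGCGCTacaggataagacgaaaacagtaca
PCDHB15, chr5:141245301-141245357: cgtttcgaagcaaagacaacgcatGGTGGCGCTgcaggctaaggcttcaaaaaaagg
The element was chosen after these sequences had been seen, so its presence in them is a description. Searched on both strands, it occurred in 176 of the 35116 promoters (0.501%), in 13 of the 14 beta promoters of the table, in 0 of the 8 alpha and gamma member promoters and in 0 of the 21 other member promoters. Its last letters, CGCT, occurred in all 9 beta, all 8 alpha and gamma and 16 of the 21 other member promoters, against 70.0% of all promoters. Outside the element, 6 of the 48 positions held the same base in all 9 windows, and the windows of PCDHB8 and PCDHB13 were alike at 56 of 57 bases. The beta promoters held 5 to 10 CpG in 300 bases (median 8), against a median of 14 over all promoters, and none held GGGCGG. The element stands in the promoters of beta genes that passed in both VPA comparisons and in those that passed in low glucose alone.

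In low glucose, 5 beta genes had a mean of at least 10 reads in both LG and LGV, and these 5 rose, with log2 fold changes from 0.51 (PCDHB2) to 1.82 (PCDHB16). Of all genes with as many reads, 19.0% rose. Another 4 beta genes were tested only because LGV was higher, and these rose too. PCDHB16 had 0.935, 0.848 and 1.07 CPM in LG and 3.72, 3.25 and 3.10 CPM in LGV (SE 0.25, FDR 3.65e-05). PCDHB2, the most abundant beta member per kb, had 8.38, 7.81 and 9.55 CPM in LG and 9.75, 13.5 and 13.2 CPM in LGV (SE 0.18, FDR 0.0307). Both genes had their LGV libraries above all LG libraries. PCDHB14 had a log2 fold change of 1.16 (FDR 0.00621), PCDHB15 of 1.28 (FDR 0.0129) and PCDHB13 of 1.07 (FDR 0.0269).

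Those 4, PCDHB6, PCDHB7, PCDHB8 and PCDHB9, had a mean under 10 reads in LG. PCDHB7 had 1, 1 and 4 reads there and 39, 30 and 37 reads in LGV, a scaled ratio of 18.4 (exact 95% counting interval 8.19 to 51.3, FDR 1.08e-05). PCDHB6 had 0.150, 0.150 and 0 CPM in LG and 1.11, 1.01 and 1.07 CPM in LGV (log2 fold change 3.44, SE 0.54, FDR 0.000142, and 2.82 without LG replicate 3). For these genes too no LG library reached an LGV library. PCDHB8 rose by 2.29 on the log2 scale (SE 0.42, FDR 0.000486) and PCDHB9 by 2.72 (SE 0.42, FDR 0.000123).

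In high glucose, 7 beta genes had a mean of at least 10 reads in both groups, and 3 of these rose with VPA (PCDHB8, PCDHB9 and PCDHB15) and none fell, against 22.8% and 21.1% of all such genes. PCDHB6, PCDHB7 and PCDHB10, tested only because HGV was higher, rose as well. PCDHB7 had 0.190, 0.209 and 0.336 CPM in HG and 2.42, 2.16 and 1.85 CPM in HGV (log2 fold change 3.10, SE 0.30, FDR 4.63e-06). PCDHB6 had 0.190, 0.209 and 0.140 CPM in HG and 2.21, 1.71 and 1.5 CPM in HGV (log2 fold change 3.31, SE 0.33, FDR 5.37e-06). Every HGV library of these genes was over 5 times every HG library. The log2 fold change was 2.22 for PCDHB10 (SE 0.42, FDR 0.000864), 1.67 for PCDHB9 (SE 0.40, FDR 0.00413, and 2.42 without HG replicate 2), 1.57 for PCDHB8 (SE 0.31, FDR 0.00122) and 0.81 for PCDHB15 (SE 0.30, FDR 0.0414).

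PCDHB2, PCDHB13, PCDHB14 and PCDHB16 did not pass in high glucose, with log2 fold changes of -0.31 (FDR 0.106), 0.16 (FDR 0.573), 0.22 (FDR 0.522) and 0.38 (FDR 0.11). These 4 genes were the most abundant beta members in HG by CPM. PCDHB13 had 1.65, 1.76 and 1.32 CPM in HG and 1.72, 1.74 and 1.82 CPM in HGV, and the groups overlapped. PCDHB16 had 2.47, 2.24 and 2.41 CPM in HG and 3.43, 3.07 and 2.76 CPM in HGV, which lay apart by a gap smaller than the spread of HGV. The summed level of the 10 beta genes was 11.7 ± 1.01 CPM in LG, 23.7 ± 2.43 in LGV, 20.5 ± 0.527 in HG and 25.5 ± 3.29 in HGV (SD, n = 3), a description with no test in which PCDHB2 had the largest share.

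**Figure D4:**
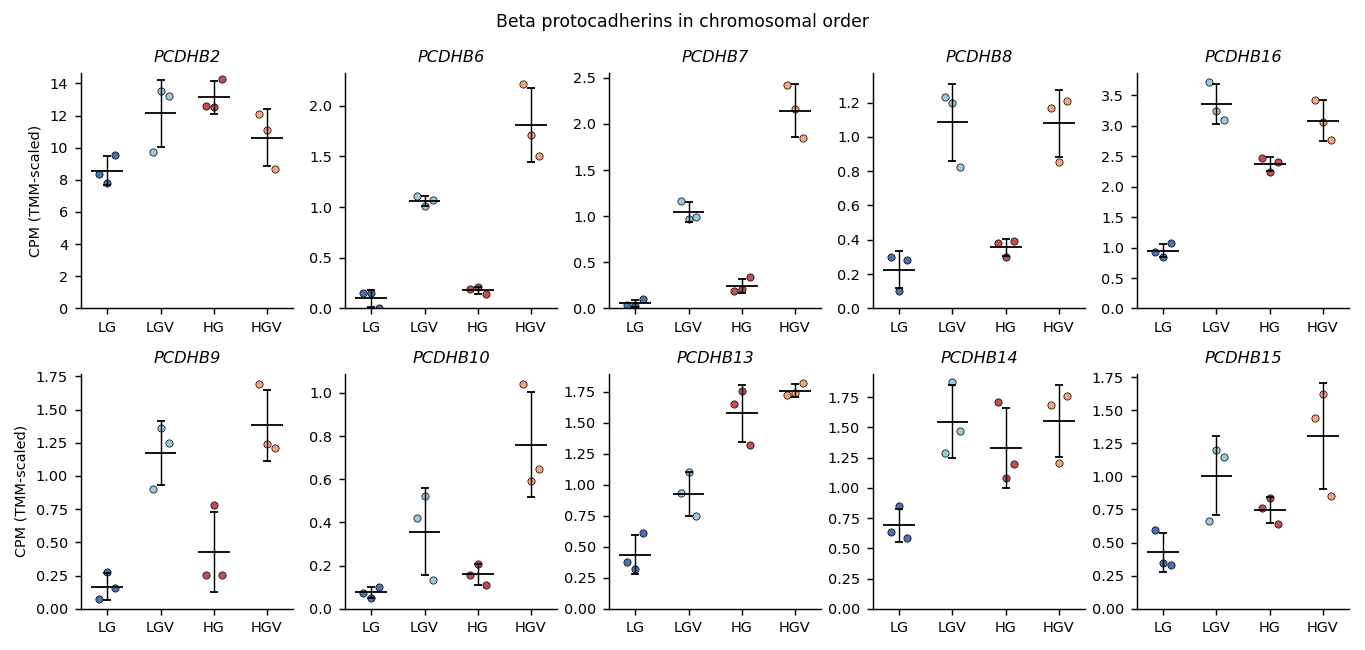
CPM (TMM-scaled, linear axes from 0, a scale of its own per gene) of the 10 beta protocadherins in chromosomal order, with 1 point per library, a line at the mean and bars of 1 SD. PCDHB6 and PCDHB7 are near 0 without VPA at both glucose levels, though PCDHB7 has 25 reads in HG against 6 in LG. PCDHB13 and PCDHB16 are higher in HG than in LG.

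Among the alpha and gamma genes, whose reads are partly shared, PCDHGB4 rose at both glucose levels. It had 2.47, 2.62 and 3.55 CPM in LG, 4.29, 4.35 and 4.59 CPM in LGV, 3.52, 4.16 and 3.67 CPM in HG and 6.35, 5.21 and 5.29 CPM in HGV. Treated libraries lay above untreated ones, with log2 fold changes of 0.57 (SE 0.16, FDR 0.013) in high and 0.62 (SE 0.22, FDR 0.0322) in low glucose. PCDHGA1 had 0.380, 0.419 and 0.280 CPM in HG and 1.38, 1.52 and 1.15 CPM in HGV (log2 fold change 1.91, SE 0.30, FDR 0.000201). In low glucose its log2 fold change was 0.88 (FDR 0.062). PCDHGB2 fell in high glucose, from 1.20 to 1.32 CPM in HG to 0.618 to 0.797 CPM in HGV (log2 fold change -0.81, SE 0.25, FDR 0.0183). PCDHA7 rose in low glucose, with a log2 fold change of 1.48 (SE 0.47, FDR 0.0206, and 2.42 without LG replicate 3), and had 0.32 (FDR 0.4) in high glucose. PCDHGB1 and PCDHGC3 passed in neither comparison.

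The sum of neuron markers did not separate the groups in which these genes rose. TUBB3 and 1 other of 7 neuron markers were analysed, neither at 0 in all libraries, with a summed level of 3.17 to 3.53 CPM in HG and 3.21 to 4.48 CPM in HGV, and TUBB3 had a log2 fold change of 0.16 (FDR 0.536). The 3 of 8 fibroblast markers analysed summed to 18.8 to 29.4 CPM in HG and 27.7 to 33.7 CPM in HGV, and COL1A1 and PDGFRA rose. The 3 of 6 leukocyte markers summed to 1240 to 1390 CPM in HG and 1440 to 1550 CPM in HGV. Nearly all of that was LYZ, at a mean of 1330 CPM in HG and 1490 CPM in HGV (FDR 0.227). The part of these values in the members' results was not tested.

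Some of these calls were lost with 1 library left out or in another setting. In high glucose PCDHB15 lost its call with DESeq2 and without any HG library, HGV replicate 1 or HGV replicate 2 (FDR up to 0.132), PCDHGB2 without HG replicate 2 or HGV replicate 3 (up to 0.0671), which left 1 gene that fell, and PCDHGB4 without HG replicate 3 or HGV replicate 1 (up to 0.0599). In low glucose a filter of 1 CPM in 3 libraries kept 23 members, of which 13 were called. PCDHGB4 (FDR up to 0.119) lost its call there without LG replicate 1 or 2 or any LGV library, CELSR1 (up to 0.109) without LG replicate 1 or 3 or any LGV library, and PCDHB2 (up to 0.127) without LG replicate 1 or 2 or LGV replicate 2 or 3. PCDHB13 (up to 0.101, and also with DESeq2) and PCDHA7 (up to 0.102) lost theirs without LG replicate 1 or 2 or LGV replicate 2, CDHR3, the 1 gene that fell, with library size alone as the scaling and without LG replicate 2 or LGV replicate 2 or 3 (up to 0.161), and PCDHB15 (up to 0.0589) without LGV replicate 2 or 3.

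High glucose alone (HG against LG) could be tested in 31 members, and 7 of them were higher in HG and 3 were lower. Over all 15452 genes tested, 12.0% were higher and 12.7% lower, 24.7% in all, against 22.6% and 9.68% of the members tested. The members' median log2 fold change was 0.24, against 0.01 over all genes. The groups lay apart upward for 11 members (19.3% of all genes) and downward for 5 (21.8%). Of the 29 members with a mean of at least 10 reads in both groups, 7 were higher (24.1%, against 11.7% of such genes).

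CDH1 was higher in HG, by 0.96 on the log2 scale (SE 0.16, FDR 0.000394), and its libraries, given above, did not overlap. CDH4, with 2.71 to 3.14 CPM in LG and 4.55 to 5.20 CPM in HG, was higher by 0.71 (SE 0.20, FDR 0.0154), and CDH16, with 7.98 to 8.81 and 11.3 to 14.2 CPM, by 0.57 (SE 0.17, FDR 0.0211). All remaining genes that were higher were beta protocadherins, 4 of the 6 tested. PCDHB13 had 0.374, 0.324 and 0.613 CPM in LG against 1.32 to 1.76 CPM in HG, a log2 fold change of 1.85 (SE 0.32, FDR 0.000482). PCDHB16 followed with 1.34 (SE 0.25, FDR 0.00102), PCDHB14 with 0.95 (SE 0.30, FDR 0.0282) and PCDHB2 with 0.64 (SE 0.17, FDR 0.00947). For each of these 4 the HG libraries lay above all LG libraries. They are also the 4 beta genes with no call for VPA in high glucose, a comparison that shares its HG libraries with this one. The filter partly set that match, since PCDHB6, PCDHB7, PCDHB8 and PCDHB10, which had a call there, were not tested here. PCDHB7 had 25 reads in HG and 6 in LG, a scaled ratio of 4.39 (exact 95% counting interval 1.76 to 13.1). PCDHB10 had a ratio of 2.11 (0.85 to 5.68). PCDHB9 and PCDHB15, also called there, did not pass here, with log2 fold changes of 1.28 (FDR 0.0878) and 0.87 (FDR 0.0762).

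Lower in HG were FAT1, CELSR1 and CDHR2. FAT1 had 526, 600 and 511 CPM in LG and 349, 308 and 281 CPM in HG, a log2 fold change of -0.78 (SE 0.12, FDR 0.000216). CELSR1 had a log2 fold change of -0.71 (SE 0.21, FDR 0.021) and CDHR2 of -0.50 (SE 0.13, FDR 0.00923). The LG and HG libraries of all 3 genes lay apart. CDH2 had -0.13 (95% interval -0.39 to 0.14, FDR 0.484), and PCDH1, CDH24 and DCHS1, with their large VPA responses, did not pass either.

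The count of calls changed with the library left out. Without HG replicate 3, 5 members were called (1 lower), and CDH4, CDHR2, CELSR1, PCDHB2 and PCDHB14 lost their calls, while without LG replicate 1, 6 were called (1 lower), and CDH16, CDHR2, CELSR1 and PCDHB14 lost theirs. CDH1, FAT1, PCDHB13 and PCDHB16 were called whichever library was left out. CDH16 also lost its call without HG replicate 2 (FDR up to 0.145), CELSR1 without LG replicate 2 or with library size alone (up to 0.14) and PCDHB14 with DESeq2 and without LG replicate 3 or HG replicate 1 (up to 0.121).

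**Figure D5:**
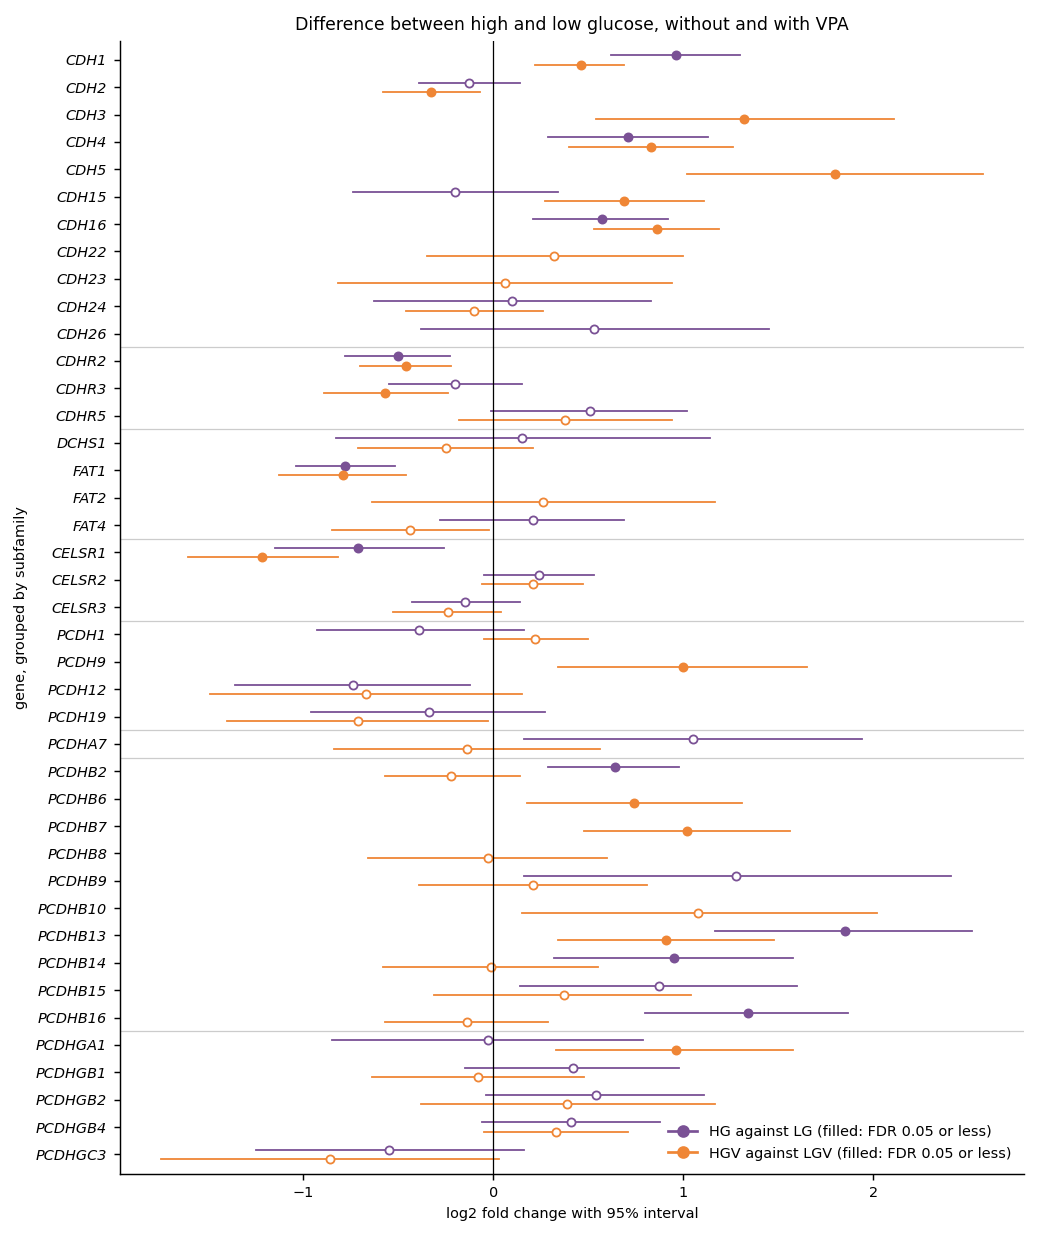
Log2 fold changes (x axis) of the members (y axis, grouped by subfamily) for HG against LG (purple) and HGV against LGV (orange), with 95% intervals from edgeR and filled points where FDR is 0.05 or less. CDH1, CDH4, CDH16 and PCDHB13 are filled right of 0 in both comparisons, and FAT1, CELSR1 and CDHR2 left of 0 in both.

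With VPA in both arms (HGV against LGV), 40 members were tested, and 11 were higher and 5 lower in high glucose. Over the 16208 genes tested, 21.2% were higher and 19.5% lower, 40.7% in all, against 27.5% and 12.5% of the members tested. The groups lay apart upward for 13 members (27.7% of all genes) and downward for 7 (23.7%). The members' median was 0.21, against 0.01 over all genes.

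Cadherins made up 6 of the 11. CDH5 had the largest log2 fold change, 1.80 (SE 0.37, FDR 0.000924), from 0.510, 0.195 and 0.374 CPM in LGV to between 0.999 and 1.5 CPM in HGV. CDH3 followed with 1.32 (SE 0.37, FDR 0.00874), from 0.390, 0.390 and 0.640 CPM in LGV. Both genes had HGV libraries above every LGV library. CDH16 was higher by 0.86 (SE 0.16, FDR 0.000364), CDH4 by 0.83 (SE 0.21, FDR 0.00362), CDH15 by 0.69 (SE 0.20, FDR 0.0108) and CDH1 by 0.46 (SE 0.11, FDR 0.00359).

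Protocadherins gave the other 5. PCDHB7 was higher by 1.02 (SE 0.26, FDR 0.00432), PCDH9 by 1.00 (SE 0.31, FDR 0.0167), PCDHGA1 by 0.96 (SE 0.30, FDR 0.0156), PCDHB13 by 0.91 (SE 0.27, FDR 0.0129) and PCDHB6 by 0.74 (SE 0.27, FDR 0.0341). PCDHB2, PCDHB14 and PCDHB16, which were higher in HG than in LG, had log2 fold changes of -0.22 (95% interval -0.57 to 0.14), -0.01 (-0.58 to 0.55) and -0.14 (-0.57 to 0.29) here.

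CELSR1 had the largest decrease, a log2 fold change of -1.22 (SE 0.19, FDR 8.47e-05), from 5.76 to 6.63 CPM in LGV to 2.47 to 2.88 CPM in HGV. FAT1 was lower by a log2 fold change of -0.79 (SE 0.16, FDR 0.000785), with 563, 649 and 663 CPM in LGV and 453, 277 and 364 CPM in HGV. CDHR3 had -0.57 (SE 0.16, FDR 0.00745), CDHR2 -0.46 (SE 0.12, FDR 0.00432) and CDH2 -0.33 (SE 0.12, FDR 0.0395). The groups lay apart for all 5 genes. Without LGV replicate 3, the count of members higher was 7 and the calls of CDH2, CDH15, PCDH9, PCDHB6 and PCDHB13 were lost. CDH2 also lost its call with library size alone as the scaling and without LGV replicate 2 or HGV replicate 1 or 3 (FDR up to 0.162). A call was lost as well by CDH3 (0.0602) and PCDH9 (up to 0.127) without HGV replicate 2, by CDH15 (up to 0.063), PCDHB6 (up to 0.151) and PCDHGA1 (0.0692) without LGV replicate 2, and by PCDHB6 without HGV replicate 1, with DESeq2 and in 1 fit of all 12 libraries.

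Whether VPA acted differently at each glucose level was tested as an interaction term fitted to all 12 libraries. No member was called by edgeR, against 7 of 16389 genes (0.0427%, with 0.0244% above 0 and 0.0183% below), and 8 members had an unadjusted p of 0.05 or less, against 1852 of all genes. DESeq2 called 2 members, PCDHB16 and PCDHB2. With 1 library left out, edgeR called PCDHB16 without LG replicate 2 (FDR 0.0352) or LG replicate 3 (FDR 0.0333), and CDH15 without LG replicate 2 (FDR 0.0421). An effect called at 1 glucose level and not at the other, as for FAT4 or CDH15, is therefore not shown to differ between them.

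PCDHB16 had the smallest p, with an interaction of -1.43 on the log2 scale (SE 0.30, FDR 0.0627), which did not pass. The FDR ran from 0.00377 to 0.19 over the alternatives, and the interaction was below 0 in each. Other genes, 1 on each strand, overlap 26.1% of the exon bases of PCDHB16, and their part in its values was not tested. PCDHB2 had -0.81 (SE 0.24, FDR 0.164, 0.0459 to 0.399 over the alternatives) and CDH1 -0.46 (SE 0.17, FDR 0.276). The interaction was below 0 for 9 of the 10 beta genes, with a median of -0.86, and for 28 of the 41 members, against 7495 of the 16389 genes. Of the 8 members with the lowest p values, PCDHB2, PCDHB13, PCDHB14, PCDHB16 and CDH1 were below 0, and CDH15 (0.93, FDR 0.289), PCDH1 (0.65, FDR 0.386) and PCDHGA1 (1.03, FDR 0.399) above.

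Partners of the members were described from lists by gene symbol, each read against the shares of all genes in HGV against HG given above. Of 7 catenins and armadillo partners tested, 2 rose and 1 fell. VCL, which couples alpha-catenin to actin, rose by 1.56 on the log2 scale (SE 0.10, FDR 1.61e-07), JUP by 0.39 (FDR 0.00457), and ARVCF had -0.34 (FDR 0.0397). The catenins CTNNB1, CTNNA1 and CTNND1 did not pass, with log2 fold changes of -0.14 (FDR 0.246), 0.10 (FDR 0.487) and -0.22 (FDR 0.114). Among 6 desmosomal genes, 2 fell, namely the desmosomal cadherin DSC2 with -2.01 (SE 0.17, FDR 1.12e-06) and the plaque protein PKP3 with -0.84 (FDR 0.000189).

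Of 10 repressors of CDH1 transcription listed, 4 were tested, and 2 of these rose in HGV against HG, as did CDH1. SNAI1 went from a mean of 1.30 to 11.0 CPM (log2 fold change 3.07, SE 0.20, FDR 1.7e-07) and SNAI3 from 1.80 to 7.46 CPM (2.05, SE 0.17, FDR 1.12e-06). ZEB1 had 0.07 (FDR 0.828) and TCF3 -0.13 (FDR 0.326). In HG against LG, where CDH1 was higher too, SNAI1 was lower (-0.82, FDR 0.0347) and SNAI3 higher (0.76, FDR 0.0468). Planar polarity genes, which work with CELSR proteins, had 5 of 11 higher and 3 lower in HGV against HG. VANGL2 rose by 4.11 (SE 0.21, FDR 3.5e-08), ANKRD6 by 3.75 (SE 0.28, FDR 4.74e-07) and PRICKLE2 by 3.56 (SE 0.37, FDR 7.79e-06). Of 16 Hippo pathway genes, which act downstream of FAT cadherins in flies, 2 rose and 4 fell, YAP1 most with -1.39 (SE 0.14, FDR 5.32e-06).

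A list of 17 genes for the folding of the protocadherin clusters, for silencing and for DNA methylation and its removal had 9 lower and 2 higher. TET3, which acts in the removal of DNA methylation, was among those lower (log2 fold change -0.77, FDR 0.00729), so the list is not 1 of silencing genes alone. CTCF, which binds clustered protocadherin promoters and sets their loops, had a log2 fold change of -0.80 (SE 0.10, FDR 3.03e-05), REST, a repressor of neuronal genes, -0.66 (SE 0.19, FDR 0.0124), the cohesin subunit STAG1 -1.25 (SE 0.21, FDR 0.000422) and the DNA methyltransferase DNMT3A -1.36 (SE 0.10, FDR 4.6e-07). The other DNA methyltransferases rose, DNMT3B by 1.48 (SE 0.12, FDR 1.3e-06) and DNMT1 by 0.43 (FDR 0.00686). In LGV against LG, 7 of the 17 fell and 1 rose. There CTCF, STAG1 and DNMT3A were again lower, whereas REST did not pass (log2 fold change -0.15, FDR 0.354). Of 10 cytoplasmic partners of protocadherins, 3 rose and 2 fell, of 8 genes for the shedding of cadherins, 2 rose and 1 fell, and the 2 brush border partners of CDHR2 that were tested did not pass.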

How the data were processed

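Per the labels and the study's methods, poly(A) RNA of 12 HepG2 libraries was read from 1 end, and the authors aligned the reads to GRCh37 with STAR and made gene counts with featureCounts on the Ensembl annotation. Counting used a map quality threshold of 10, and its effect on reads from stretches shared between genes is not given. The authors deposited raw counts, without normalization, for 16389 genes with a mean of at least 10 reads. Strand use in counting is not given in the sources used here, and no batch is named.

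Members were placed on GRCh37 with GENCODE annotation, 40 by identifier and 1 by symbol. Each comparison was fitted on all genes with edgeR 4.0.16 in R 4.3.3, using TMM factors (0.879397 to 1.09483), a mean of 10 or more reads per gene, the quasi-likelihood F test and Benjamini-Hochberg adjustment, with calls at an FDR of 0.05 or less. The interaction used the 12 libraries. Counting intervals and the floor of 3 reads cover counting error only. Promoters came from RefSeq on GRCh38.p14 and share no coordinates with the counts.

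The members, the partner and marker lists and the tests were chosen with earlier results of these data known. Full values were given for the 14 members of a fixed list that were among the deposited genes. CDH6, CDH11, CDH13, CDH17, PCDH7 and PCDH10 were on that list but not among those genes. Full values also went to the 12 (VPA) or 8 (glucose) members with the largest fold change among those called, at 1 CPM or more and with groups apart. The 3 members with the smallest interaction p had them too. Other members appear with their calls or ranges. Lists were described by counts, with values for some of their genes.

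The alternatives were DESeq2 1.42.0 (size factors, and its Wald test), library size only, no filter, 1 CPM in 3 libraries, replicate number as a block, 1 fit of all 12 libraries, an FDR of 0.01 and each library left out in turn. The edgeR step was tested on simulated data.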

Additional observations from a re-analysis of the deposited data

Results flagged for a closer look

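With VPA, the libraries of PCDHB2 lay on opposite sides of their untreated controls at the 2 glucose levels. All 3 HGV libraries lay below all 3 HG libraries (8.68 to 12.1 against 12.5 to 14.3 CPM), and all 3 LGV libraries lay above all 3 LG libraries (9.75 to 13.5 against 7.81 to 9.55 CPM). The interaction of glucose and VPA was -0.81 on the log2 scale and did not pass the edgeR test (FDR 0.164). An antisense gene on the other strand overlaps 43.8% of the exon bases of PCDHB2, and its part in the values was not tested.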

How the results depend on the processing

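Over 847 alternatives to 65 log2 fold changes of named members, none reversed. The value kept its side of the threshold in 790, lost its call in 53 and moved past the threshold in 4, all interactions of PCDHB16 or PCDHB2. At an FDR of 0.01, members lower in HGV against HG numbered 1, members lower in LGV against LG 0, members called and higher in HG against LG 6 and 4, and in HGV against LGV 10 and 6. A filter of 1 CPM in 3 libraries tested fewer members and left 13 called and 12 higher in LGV against LG. With library size only, 0 members were lower in LGV against LG, and the median of all genes was 0.15 in HGV against HG, 0.16 in LGV against LG and 0.11 in HG against LG in place of 0.02, -0.01 and 0.01. DESeq2 called 2 interactions, both lower.

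With each library left out, members lower ran from 1 to 2 in HGV against HG and from 0 to 1 in LGV against LG. In HG against LG the members called ran from 5 to 11, higher from 4 to 8 and lower from 1 to 3. In HGV against LGV the members higher ran from 7 to 12. Interactions called ran from 0 to 2, with 0 to 1 in each direction. The causes were not tested.

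Deviations of same-numbered libraries from their group means correlated at -0.126 to 0.241 in HGV against HG and at -0.201 to 0.295 in LGV against LG. In HG against LG the correlations were -0.156 to 0.00539, and in HGV against LGV 0.026 to 0.195. With 3 libraries per group, these values cannot decide whether the numbers pair the samples. With the replicate block, 22 members were called in each VPA comparison, as without it. HG against LG had 12 (PCDHA7 and PCDHB9 in addition), HGV against LGV 18 (PCDHB10 and PCDHGC3 in addition) and the interaction 0. Of 6 libraries, 3, 2, 1 and 2 correlated best with their own number in HGV against HG, LGV against LG, HG against LG and HGV against LGV.

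Depth limits the low members: with at most 4 reads in any untreated library, the ratios of CDH22 and PCDH9 are known only within their wide counting intervals.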
